A study of Mus musculus with 12 samples.

Results

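Hepatic organic anion and drug transporters move bile pigments, hormone conjugates and medicines into the hepatocyte and out of it again. The 9 genes described are the uptake carriers Slco1a1, Slco1a4, Slco1b2, Slco2b1 and Slc22a7 and the export pumps Abcc2, Abcc3, Abcc4 and Abcb1a, taken by symbol as the main sinusoidal and canalicular carriers of these compounds. They are 9 of the 46078 genes in the table of liver read counts. All 9 passed the filter on low counts that left 13054 genes for testing. The mice were male C57BL/6J animals made obese on a high fat diet, aged 21 weeks, in 3 groups of 4. VSG mice had a vertical sleeve gastrectomy, an operation that removes most of the stomach. Sham-WM mice had sham surgery and then restricted food so that their weight followed that of the VSG mice, and Sham-Ad lib mice had sham surgery with unrestricted food. All 3 groups thus shared the high fat diet, a laparotomy and the drugs given around the operation.

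Uptake at the sinusoidal membrane, facing the blood, runs through organic anion transporting polypeptides of the Slco family and organic anion transporters of the Slc22 family. Export runs through ATP-driven pumps, of which Abcc2 and Abcb1a sit in the canalicular membrane, facing the bile, and Abcc3 and Abcc4 in the basolateral membrane, facing the blood. The transcripts of these carriers are known in mouse liver for large differences between sexes and for their response to xenobiotic and bile acid receptors and to inflammation.

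Library totals lay between 15122520 and 19384076 counts. Levels are given as CPM, which are counts scaled by the normalised library size, and 3 counts correspond to between 0.153 and 0.226 CPM. Libraries were assigned to groups by animal number, which each library name shares with a sample title and with no other. The description field of all 12 samples names the library of another animal, in the text order of the library names. Which field is right is not settled. By animal number, edgeR called 98 genes in VSG against Sham-Ad lib, 912 in Sham-WM against Sham-Ad lib and 3509 in VSG against Sham-WM. With libraries grouped by description it called 0 in each. The 15 hepatocyte markers, none of them at 0 in any library and albumin (Alb) the most abundant, summed to 156531, 139749, 160755 and 154465 CPM in Sham-Ad lib livers 3F, 4F, 6F and 10F. The sum was 154883, 167480, 166533 and 185293 CPM in Sham-WM livers 2F, 9F, 15F and 16F and 120990, 117039, 131138 and 161995 CPM in VSG livers 1F, 8F, 11F and 18F, so that 1F, 8F and 11F lay below all sham livers. That order came from Alb, at 52478 to 56632 CPM in these 3 and 75934 CPM or more in the others, whereas the other 14 markers summed to 63816 to 70785 CPM in Sham-Ad lib, 59651 to 63864 CPM in Sham-WM and 64358 to 75440 CPM in VSG livers. These markers bear on the tissue and not on the assignment to groups. The 28 acute phase genes differed between livers of the same group. Their summed level was 23852, 58714, 27254 and 66078 CPM in Sham-Ad lib livers 3F, 4F, 6F and 10F, 25163, 26196, 24126 and 23510 CPM in Sham-WM livers 2F, 9F, 15F and 16F, and 117938, 91347, 96762 and 37277 CPM in VSG livers 1F, 8F, 11F and 18F. Sham-Ad lib livers 4F and 10F thus lay above the rest of their group, and VSG liver 18F lay below the rest of its group. Transporters that changed their call without 4F or 18F are given with and without them, as are the numbers of all genes called in VSG against Sham-Ad lib. The other gene lists were not read without these livers.

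Against Sham-Ad lib, no transporter passed an adjusted p of 0.05 after VSG in edgeR's quasi-likelihood test, where 98 of 13054 genes (0.751%) did. At an unadjusted p under 0.05 there were 3 of the 9 (Slco2b1, Abcc2 and Abcc3, each lower after VSG), against 24.1% of all genes, and DESeq2 called 2 of the 9 (Slco2b1 and Abcc3), against 9.21%. In 1 of the 9, Abcc2, every VSG liver lay below every Sham-Ad lib liver, and 1202 of all genes tested (9.21%) showed such a separation. The median log2 fold change was -0.39 over the 9 transporters and 0.03 over all genes tested, with 7 transporters below 0. The count of 98 changed with nearly every liver left out, the Sham-WM livers outside the comparison included: it was 1089 without 18F, 903 without 4F, 227 without 8F, 3 without 15F, 1 without 3F, 10F or 16F, 0 without 6F, 2F, 9F or 1F, and 1453 without 4F and 18F together.

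Between Sham-WM and Sham-Ad lib, none of the 9 was called by edgeR, none had an unadjusted p under 0.05 and none was called by DESeq2. The shares of all genes tested were 6.99% (912 genes), 21.6% and 11.1%. No transporter separated these groups without overlap, while 17.6% of all genes did. The median log2 fold change was -0.18 over the transporters and 0.00 over all genes. The count of 912 was 543, 554, 506, 445 and 424 without 3F, 6F, 10F, 15F and 16F respectively.

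Between VSG and Sham-WM, groups of matched weight, 3509 genes (26.9%) were called, with 1962 up and 1547 down. Of the 9 transporters 1, Abcb1a, was called (11.1%), and the same gene alone among them separated the groups without overlap, as did 26.2% of all genes. At an unadjusted p under 0.05 there were 3 of the 9 (Slco1a1, Slco1a4 and Abcb1a, each lower after VSG), against 40.4% of all genes, and DESeq2 called Abcb1a alone, against 31.3%. The median log2 fold change was -0.24 over the 9 and 0.03 over all genes. The count of 3509 was 2234 without 15F and 2196 without 16F. The comparisons of VSG and of Sham-WM with Sham-Ad lib share their control livers, so their values are set side by side and not read against each other.

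**Figure D1:**
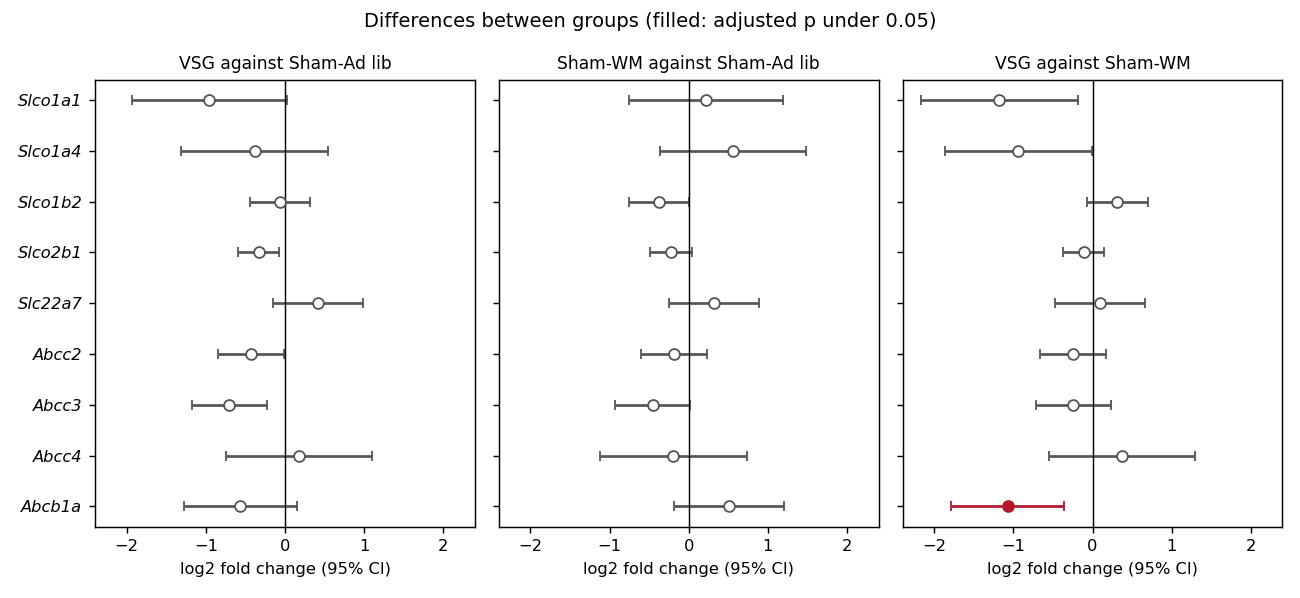
Log2 fold change of each transporter (points, with 95% intervals) in the 3 comparisons between groups of 4 livers; a filled point marks an adjusted p under 0.05. Abcb1a in VSG against Sham-WM, at -1.07, is the filled point, and the intervals of Slco1a1 and Slco1a4 are the widest of the uptake carriers.

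Slco1b2, Slco1a4 and Slco1a1 lie in the same cluster on chromosome 6 of mm10, within 317 kb, at chr6:141629518-141686646 on the plus strand, chr6:141805440-141856199 on the minus strand and chr6:141907282-141946962 on the minus strand. Because Slco1a1 and Slco1a4 were both lowest in VSG livers 1F and 8F while Slco1b2 was not, the promoter windows from RefSeq (GRCm38.p6, 250 bases before to 50 after the start) are shown, at chr6:141629268-141629567, chr6:141856171-141856470 and chr6:141946913-141947212, each read along the gene's own strand.
Slco1b2: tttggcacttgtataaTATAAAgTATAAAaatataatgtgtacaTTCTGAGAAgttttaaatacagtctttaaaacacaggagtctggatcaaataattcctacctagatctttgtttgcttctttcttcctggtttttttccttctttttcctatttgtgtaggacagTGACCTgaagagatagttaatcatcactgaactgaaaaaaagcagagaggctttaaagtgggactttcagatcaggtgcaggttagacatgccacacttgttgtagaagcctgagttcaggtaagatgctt
Slco1a4: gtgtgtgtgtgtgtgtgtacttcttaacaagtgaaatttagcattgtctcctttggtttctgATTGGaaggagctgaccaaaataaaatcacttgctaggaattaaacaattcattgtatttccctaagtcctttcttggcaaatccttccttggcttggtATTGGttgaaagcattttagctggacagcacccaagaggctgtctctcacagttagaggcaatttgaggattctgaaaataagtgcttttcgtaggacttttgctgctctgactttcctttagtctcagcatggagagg
Slco1a1: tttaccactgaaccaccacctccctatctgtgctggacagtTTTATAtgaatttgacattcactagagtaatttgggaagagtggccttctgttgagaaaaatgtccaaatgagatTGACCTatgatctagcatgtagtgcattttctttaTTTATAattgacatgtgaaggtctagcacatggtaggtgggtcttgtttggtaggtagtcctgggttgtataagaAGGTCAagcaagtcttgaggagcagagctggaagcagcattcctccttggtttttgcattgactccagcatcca
Capitals mark matches on either strand to 5 motifs: AGGTCA, a nuclear receptor half-site, TATAAA, the TATA box, CCAAT, the CCAAT box, TTCNNNGAA, a palindrome bound by STAT factors, and TGACNNNGC, the antioxidant response core. The first and last of these can overlap, since AGGTCA reads TGACCT on the opposite strand and shares its TGAC with the antioxidant core. Of the 32851 promoters in the table, 16.3% hold AGGTCA, 13.6% TATAAA, 37.4% CCAAT, 8.3% TTCNNNGAA and 12.4% TGACNNNGC. The Slco1a1 window holds the nuclear receptor half-site and the TATA box, each at 2 places. The Slco1b2 window holds the nuclear receptor half-site, the TATA box at 2 places and the STAT motif, and the Slco1a4 window the CCAAT box at 2 places. A match describes the letters of the window and nothing more. Of the 9 transporters 7 had a promoter entry, Abcc3 and Slc22a7 being the others.

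Slco1b2 encodes the liver's principal uptake carrier for conjugated bilirubin and many drugs. Its level in Sham-Ad lib livers 3F, 4F, 6F and 10F was 1851, 1081, 1682 and 1378 CPM. In Sham-WM livers 2F, 9F, 15F and 16F it was 1137, 1025, 1187 and 1266 CPM. In VSG livers 1F, 8F, 11F and 18F it was 1309, 1160, 1609 and 1653 CPM. The Sham-WM livers lay close together at the lower end, and 3 of the 4 VSG livers and 3 of the 4 Sham-Ad lib livers lay above all of them, while 4F and 8F fell within their range. The log2 fold change was 0.31 (SE 0.18, adjusted p = 0.206) for VSG against Sham-WM, -0.38 (SE 0.18, adjusted p = 0.242) for Sham-WM against Sham-Ad lib and -0.06 (SE 0.18, adjusted p = 0.85) for VSG against Sham-Ad lib. The 95% interval of the last, -0.45 to 0.32, covers falls and rises alike. With 2 RUVs factors, which remove variation seen between livers of a group, Slco1b2 passed the threshold in both comparisons with Sham-WM (adjusted p = 0.0319 and 0.0287). Over all settings tried, its adjusted p in VSG against Sham-WM ran from 0.0319 to 1 and in Sham-WM against Sham-Ad lib from 0.0287 to 0.925. Those settings, here and for the genes below, include the grouping by description, under which edgeR called no gene. With 1 library left out, the adjusted p of Slco1b2 in edgeR reached at most 0.372 and 0.488 in these comparisons.

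Slco1a1, a male-predominant carrier of steroid conjugates and bile acids, was the transporter with the lowest log2 fold change between VSG and Sham-WM. It stood at 599, 165, 278 and 442 CPM in Sham-Ad lib livers 3F, 4F, 6F and 10F. The Sham-WM livers 2F, 9F, 15F and 16F had 516, 555, 422.5 and 236 CPM, and the VSG livers 1F, 8F, 11F and 18F had 84.6, 101, 281 and 298 CPM. VSG livers 1F and 8F were the lowest of all 12, and 11F and 18F fell within the range of both sham groups. The spread was wide everywhere, with a 3.63-fold range among Sham-Ad lib livers, 2.35-fold among Sham-WM livers, 3.53-fold among VSG livers and 7.08-fold over the 12. The mean was 191.3 ± 114.2 CPM after VSG, 432.5 ± 142 in Sham-WM and 371 ± 190 in Sham-Ad lib (SD, n = 4 each). The log2 fold change of -1.18 between VSG and Sham-WM (SE 0.46, 95% interval -2.17 to -0.19) had an adjusted p = 0.0726, and that of -0.95 between VSG and Sham-Ad lib (SE 0.46) an adjusted p = 0.22. For Sham-WM against Sham-Ad lib it was 0.22 (SE 0.45, adjusted p = 0.834), and without 4F it was -0.02. Without 18F, VSG against Sham-WM gave -1.48 with an adjusted p = 0.0401, and without 4F and 18F together 0.0263, in a range from 0.00334 to 1 over all settings tried. Liver 18F was the highest VSG liver of Slco1a1, so leaving it out lowers the VSG mean by construction. With libraries grouped by the description field, the log2 fold change of this comparison turned to 0.45. In tissue as a whole, fewer cells of a type and less RNA per cell cannot be told apart, here or for any gene below.

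Slco1a4, which carries cardiac glycosides and bile acids and is also found at the blood-brain barrier, had 84.1, 43.6, 88.0 and 50.8 CPM in Sham-Ad lib livers 3F, 4F, 6F and 10F. Sham-WM livers 2F, 9F, 15F and 16F had 96.1, 66.0, 120 and 109.2 CPM. VSG livers 1F, 8F, 11F and 18F had 26.5, 29.6, 31.0 and 117 CPM. The VSG livers 1F, 8F and 11F were below every sham liver, and 18F was above every liver but 15F. In the edgeR test that liver decided the outcome. With it, the log2 fold change was -0.94 (SE 0.43, adjusted p = 0.12) against Sham-WM and -0.39 (SE 0.43, adjusted p = 0.604) against Sham-Ad lib. Without it, they were -1.76 (adjusted p = 0.00125) and -1.20 (adjusted p = 0.0249), and without 4F as well -1.75 (adjusted p = 0.000412) and -1.36 (adjusted p = 0.00459). In this gene 18F was the highest VSG liver and 4F the lowest Sham-Ad lib liver. Leaving them out widens the difference from Sham-Ad lib by construction, and leaving out 18F also that from Sham-WM. These values are therefore no independent support. With all 12 livers and 2 RUVr factors, which take up variation left over by the fit, Slco1a4 passed against Sham-WM (-1.24, adjusted p = 0.000974) and not against Sham-Ad lib (-0.57, adjusted p = 0.0772). Of all genes tested, 42% and 22.7% passed in those comparisons with RUVr. With 2 RUVs factors the sign of Slco1a4 turned in both comparisons, to 0.62 against Sham-Ad lib. Over all settings tried, the log2 fold change ran from -1.76 to 0.51 against Sham-WM and from -1.36 to 0.62 against Sham-Ad lib. The adjusted p ran from 0.000412 to 1 and from 0.00459 to 0.999. Sham-WM and Sham-Ad lib differed by 0.55 (SE 0.43, adjusted p = 0.502).

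The livers low in Slco1a4 were those high in acute phase transcripts. Its 5 lowest levels, 26.5 to 50.8 CPM, were those of VSG livers 1F, 8F and 11F and Sham-Ad lib livers 4F and 10F, whose summed acute phase level was 58714 CPM or more. The other 7 livers, 18F among them, held 66.0 to 120 CPM of Slco1a4 beside at most 37277 CPM of acute phase transcripts. Of the 15 hepatocyte markers, 2 were called higher and 2 lower in VSG against Sham-WM (Tf at 1.185, adjusted p = 0.014, Alb at -0.73, adjusted p = 0.0294, and Cps1 at -0.83, adjusted p = 0.0174, among them), with a median of 0.16, and none in the other comparisons. For Slco1a1 the order was looser, since 10F, with 66078 CPM of acute phase transcripts, had 442 CPM of it, and 16F, with 23510 CPM, had 236 CPM. Of the 28 acute phase genes, 24 were called higher and 0 lower in VSG against Sham-WM, beside 15% and 11.9% of all genes, with Saa2 at the highest log2 fold change (7.80, adjusted p = 0.00611) and Il6ra at the lowest of those called (0.73, adjusted p = 0.0107). In VSG against Sham-Ad lib 3 were called higher (0.467% of all genes) and 0 lower (0.283%), calls that, like all others of this comparison, were absent without 6F, 2F, 9F or 1F, and in Sham-WM against Sham-Ad lib 0 were higher (3.53%) and 6 lower (3.45%). The median log2 fold changes of the list were 1.98, 1.098 and -0.82.

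Markers of Kupffer cells and other macrophages were highest in the 4 VSG livers, 18F included, with 4F next and 10F among the other sham livers. The 14 of them summed to 233.5, 777, 306 and 263 CPM in Sham-Ad lib livers 3F, 4F, 6F and 10F, to 346, 267, 339 and 206 CPM in Sham-WM livers 2F, 9F, 15F and 16F, and to 2329, 1154, 1094 and 796 CPM in VSG livers 1F, 8F, 11F and 18F. Cd5l was the most abundant and no marker was at 0 in all livers. In VSG against Sham-WM, 12 were called higher, from Cd68 at 1.52 to Marco at 3.63, and 0 lower, beside 15% and 11.9% of all genes, with a median of 2.01. In VSG against Sham-Ad lib 2, Clec4f and Vsig4, were called higher (0.467% of all genes), with a median of 1.57, and in Sham-WM against Sham-Ad lib 0 were called, with a median of -0.42. The part of any of these lists in the levels of Slco1a1 and Slco1a4 was not tested.

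**Figure D2:**
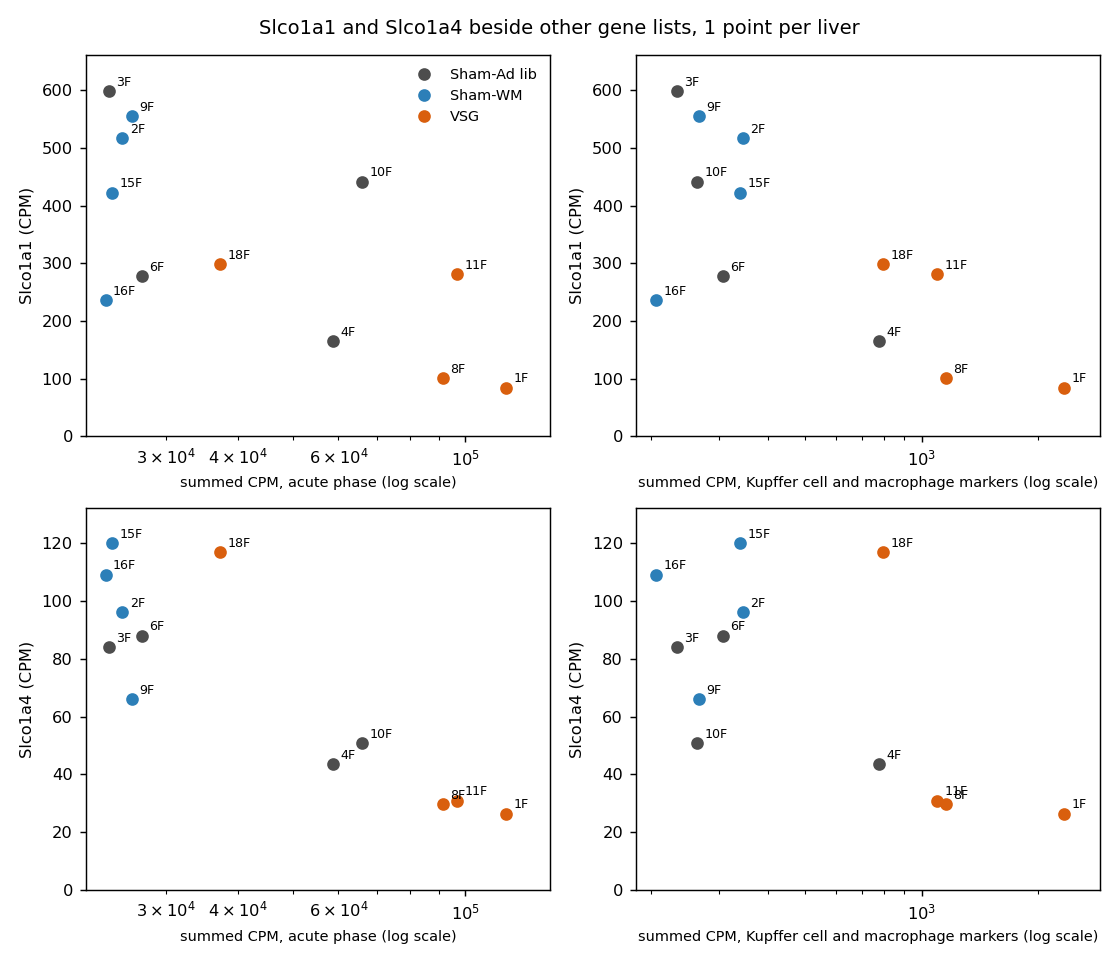
Slco1a1 and Slco1a4 (CPM, vertical axes from 0) in each of the 12 livers beside the summed level of 28 acute phase genes and of 14 macrophage markers (CPM, log axes); colours mark the groups and each point is named by its animal. VSG liver 18F, at 117 CPM of Slco1a4, is level with the highest sham livers, and livers 4F and 10F lie towards the remaining VSG livers in acute phase level.

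The balance of the 3 carriers within the cluster was read as shares. Per kb of exon, Slco1b2 made up 74.8, 85.2, 83.7 and 75.3% of their sum in Sham-Ad lib livers 3F, 4F, 6F and 10F. The share was 67.2, 64.3, 70.9 and 80.6% in Sham-WM livers 2F, 9F, 15F and 16F and 92.9, 90.8, 84.9 and 81.8% in VSG livers 1F, 8F, 11F and 18F. Each VSG liver thus had a larger share of Slco1b2 than each Sham-WM liver, by a narrow gap from 80.6 to 81.8%, whereas Sham-Ad lib overlapped with both groups. The share of Slco1a1 was 10.2 ± 4.29% after VSG, 24.7 ± 7.96% in Sham-WM and 17.55 ± 5.81% in Sham-Ad lib (SD, n = 4 each), and that of Slco1a4 was 2.23 ± 1.49%, 4.598 ± 1.07% and 2.69 ± 0.51%. These shares are descriptive and carry no test. They are parts of the same sum, so a larger share of Slco1b2 is a smaller share of the other carriers. In level, Slco1b2 itself overlapped between VSG and Sham-WM, groups that 26.2% of all genes tested separated without overlap. Reads of the 3 genes could be told apart, for 0.614% of the 100-base windows of Slco1a1 transcripts and 0.64% of those of Slco1a4 also occur in another gene (each other or Slco1a5), and none of those of Slco1b2.

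Slco2b1, a carrier of sulphated steroids at chr7:99657804-99711340 on the minus strand, was the steadiest of the 9. It had 224, 197, 250.1 and 240.2 CPM in Sham-Ad lib livers 3F, 4F, 6F and 10F, 207, 216, 187 and 170.4 CPM in Sham-WM livers 2F, 9F, 15F and 16F, and 153, 203, 185 and 182 CPM in VSG livers 1F, 8F, 11F and 18F. Of the VSG livers 3 lay below every Sham-Ad lib liver, and 8F lay just above 4F. The log2 fold change in VSG against Sham-Ad lib was -0.33 (SE 0.12, 95% interval -0.60 to -0.07, adjusted p = 0.126). DESeq2 gave -0.36 with an adjusted p = 0.0479, in a range from 0.0463 to 0.999 over all settings tried. The log2 fold change was -0.24 with 2 RUVs factors and -0.03 with libraries grouped by the description field. In edgeR the log2 fold change against Sham-WM was -0.11 (SE 0.12, adjusted p = 0.518), and between the sham groups -0.22 (SE 0.12, adjusted p = 0.317). The gene Gm15635 on the opposite strand had a mean of 7.92 counts per library beside 2461 to 4623 counts of Slco2b1, and whether the counting used strand is not given in the sources used here.

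Slc22a7 encodes organic anion transporter 2, which takes up nucleotides, short dicarboxylic acids and anionic drugs, and lies at chr17:46432183-46438457 on the minus strand. The Sham-Ad lib livers 3F, 4F, 6F and 10F had 51.2, 32.25, 40.1 and 55.3 CPM, the Sham-WM livers 2F, 9F, 15F and 16F had 53.6, 61.0, 39.0 and 70.0 CPM, and the VSG livers 1F, 8F, 11F and 18F had 46.7, 34.9, 77.5 and 80.1 CPM. The VSG livers 11F and 18F were the highest of all 12, and 1F and 8F fell within the Sham-Ad lib range. No comparison passed the test. The log2 fold change was 0.42 (SE 0.26, adjusted p = 0.345) for VSG against Sham-Ad lib, 0.32 (SE 0.26, adjusted p = 0.532) for Sham-WM against Sham-Ad lib and 0.10 (SE 0.26, adjusted p = 0.809) for VSG against Sham-WM. The last turned to -0.05, -0.05 and -0.08 without 15F, 11F and 18F.

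**Figure D3:**
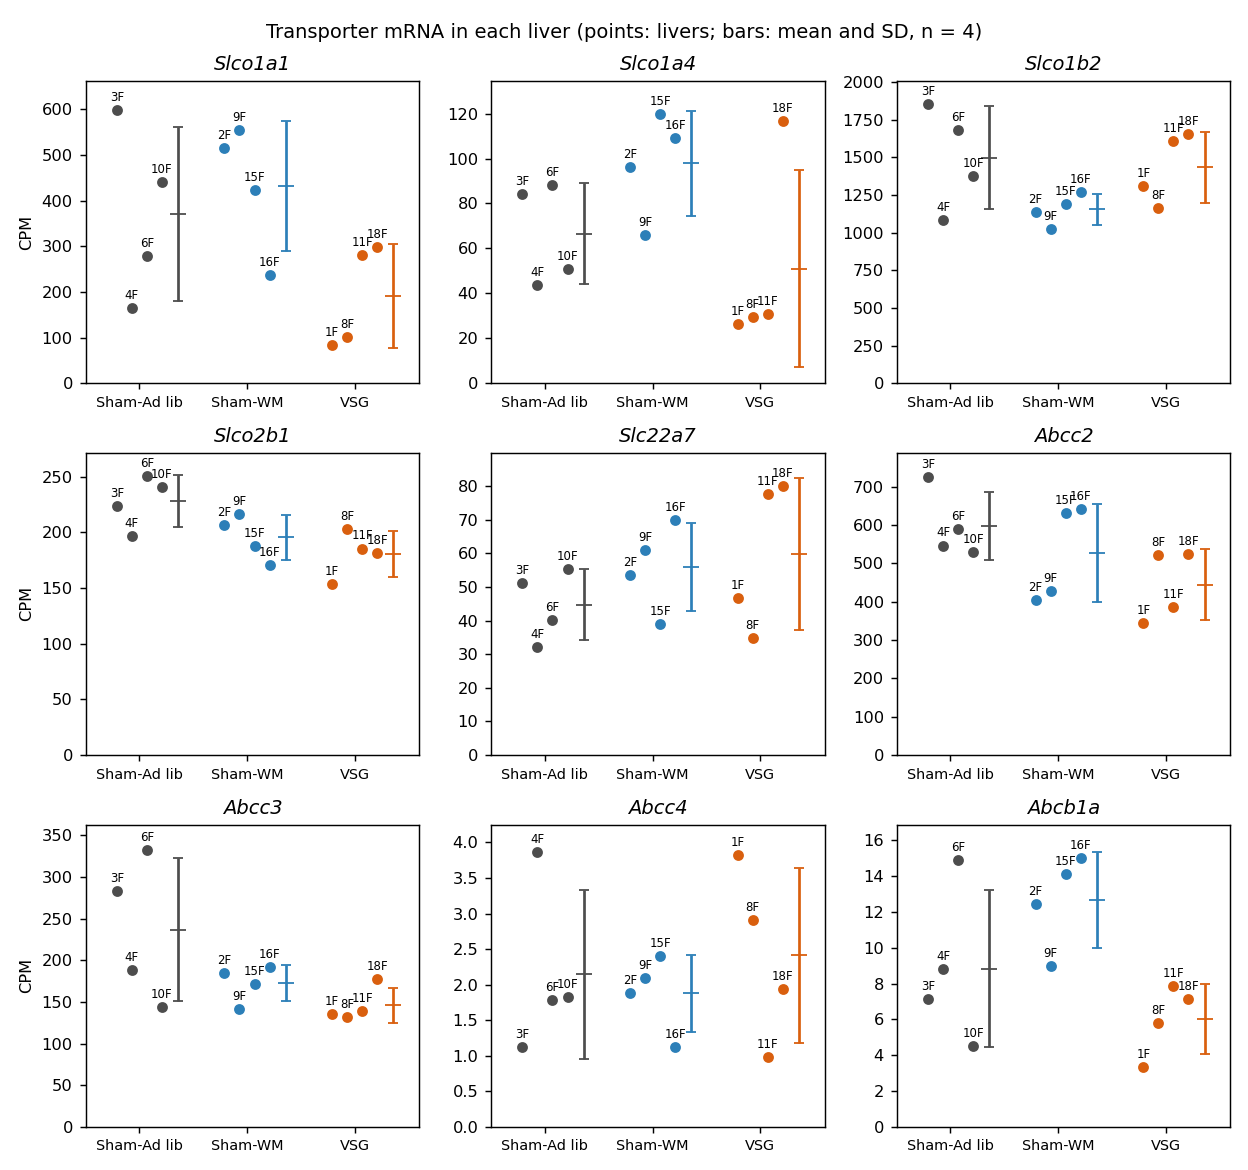
Level of each transporter in CPM (vertical axes from 0) in the 12 livers, named by animal, with the mean and SD of each group of 4. In the panel of Abcb1a the 4 VSG livers, at 3.35 to 7.83 CPM, lie below the 4 Sham-WM livers, at 8.96 to 15.0 CPM, and in that of Slco1a4 liver 18F stands apart from the other VSG livers.

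Among the pumps facing the bile, Abcc2 exports glucuronide and glutathione conjugates, bilirubin's included. It lies at chr19:43782192-43840740 on the plus strand. In Sham-Ad lib livers 3F, 4F, 6F and 10F it had 725, 547, 589.5 and 530 CPM, in Sham-WM livers 2F, 9F, 15F and 16F 406, 428, 631 and 643 CPM, and in VSG livers 1F, 8F, 11F and 18F 346, 522.5, 386 and 523.5 CPM. The 4 VSG livers were below the 4 Sham-Ad lib livers by a narrow gap, from 523.5 to 530 CPM, and the Sham-WM livers overlapped with both groups. In VSG against Sham-Ad lib the log2 fold change was -0.43 (SE 0.19, 95% interval -0.84 to -0.01, adjusted p = 0.199). Against Sham-WM it was -0.25 (SE 0.19, adjusted p = 0.359), and between the sham groups -0.18 (SE 0.19, adjusted p = 0.647). With 2 RUVr factors, VSG against Sham-Ad lib passed the threshold (adjusted p = 0.0279), in a range up to 0.999 over all settings tried. The log2 fold change of this comparison was -0.03 with 2 RUVs factors and -0.13 with libraries grouped by the description field.

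Abcb1a, a P-glycoprotein that exports hydrophobic drugs into bile and is also made by vascular endothelium, was the transporter that passed the test. It lies at chr5:8660077-8748575 on the plus strand. Its level was 7.14, 8.80, 14.9 and 4.52 CPM in Sham-Ad lib livers 3F, 4F, 6F and 10F, 12.4, 8.96, 14.1 and 15.0 CPM in Sham-WM livers 2F, 9F, 15F and 16F, and 3.35, 5.77, 7.83 and 7.11 CPM in VSG livers 1F, 8F, 11F and 18F. Every VSG liver was below every Sham-WM liver, with the nearest at 7.83 and 8.96 CPM, and the Sham-Ad lib livers overlapped with both groups. The counts behind these levels ran from 56 to 277 per library. The mean was 6.02 ± 1.97 CPM after VSG and 12.6 ± 2.68 CPM in Sham-WM (SD, n = 4 each), a log2 fold change of -1.07 (SE 0.33, 95% interval -1.79 to -0.36, adjusted p = 0.0299), or 2.11-fold lower after VSG. Against Sham-Ad lib, at 8.83 ± 4.397 CPM, the log2 fold change was -0.56 (SE 0.33, adjusted p = 0.315) after VSG and 0.51 (SE 0.32, adjusted p = 0.396) in Sham-WM.

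The call of Abcb1a was lost when 2F, 15F, 16F or 1F was left out (adjusted p = 0.0509, 0.0716, 0.0784 and 0.0779), with 2 RUVs factors (log2 fold change -0.45, adjusted p = 0.674) and when libraries were grouped by another field of the labels (-0.35, adjusted p = 1), and it was made in 17 of the 23 settings tried, with adjusted p from 0.00602 to 1. Of the 100-base windows of its transcripts, 9.23% also occur in Abcb1b or Abcb4, so that a part of its reads could have been shared with them. Abcb4, a phospholipid exporter, had 3043 to 5946 counts per library and a log2 fold change of 0.02 (SE 0.15, adjusted p = 0.936) in VSG against Sham-WM, and how its shared reads were counted is not given in the sources used here. Abcb1b, the other drug-exporting P-glycoprotein, had between 8 and 41 counts per library and a log2 fold change of 0.38 (SE 0.43, adjusted p = 0.532) in VSG against Sham-WM. Endothelial markers were read beside Abcb1a for the vascular source. Of the 14, led by Fcgr2b and with none at 0, 0 were called higher and 3 lower in VSG against Sham-WM, beside 15% and 11.9% of all genes (Kdr, Tie1 and Emcn, with Kdr at -0.89, adjusted p = 0.0151, and Tie1 at -0.56, adjusted p = 0.0277), and none in the other comparisons. Their median log2 fold change was -0.26 in VSG against Sham-WM, 0.06 in VSG against Sham-Ad lib and 0.27 in Sham-WM against Sham-Ad lib. Their summed level was 317, 257, 294.5 and 219 CPM in Sham-Ad lib livers 3F, 4F, 6F and 10F, 376.5, 369, 308 and 257 CPM in Sham-WM livers 2F, 9F, 15F and 16F and 301, 234.5, 217 and 354 CPM in VSG livers 1F, 8F, 11F and 18F. The groups overlapped in that sum, and its part in the level of Abcb1a was not tested.

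Of the pumps that return compounds to the blood, Abcc3, at chr11:94343295-94392997 on the minus strand, exports glucuronides. It had 283, 188.5, 332 and 143 CPM in Sham-Ad lib livers 3F, 4F, 6F and 10F, 185, 142, 171 and 192 CPM in Sham-WM livers 2F, 9F, 15F and 16F, and 135, 131, 139 and 177 CPM in VSG livers 1F, 8F, 11F and 18F. Sham-Ad lib livers 3F and 6F stood above all others, and 10F lay among the VSG livers. VSG livers 1F, 8F and 11F were below every sham liver. The log2 fold change in VSG against Sham-Ad lib was -0.70 (SE 0.22, 95% interval -1.18 to -0.23, adjusted p = 0.0921). DESeq2 gave -0.72 with an adjusted p = 0.0272, and without 4F and 18F it was -0.905 with an adjusted p = 0.0375. Leaving out 18F, the highest VSG liver of Abcc3, lowers the VSG mean by construction. With 2 RUVs factors the log2 fold change was -0.17, and with libraries grouped by the description field it turned to 0.28. Over all settings tried, the adjusted p ran from 0.0202 to 0.999. Against Sham-WM the log2 fold change was -0.24 (SE 0.22, adjusted p = 0.428), and between the sham groups -0.46 (SE 0.22, adjusted p = 0.25).

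Abcc4, a pump for bile acids and cyclic nucleotides at chr14:118482692-118706219 on the minus strand, was scarce, with 13 to 72 counts per library. Its level was 1.12, 3.86, 1.78 and 1.82 CPM in Sham-Ad lib livers 3F, 4F, 6F and 10F, 1.89, 2.099, 2.397 and 1.13 CPM in Sham-WM livers 2F, 9F, 15F and 16F, and 3.82, 2.91, 0.979 and 1.93 CPM in VSG livers 1F, 8F, 11F and 18F. Liver 4F of the Sham-Ad lib group and livers 1F and 8F of the VSG group were the highest, and the groups overlapped throughout. Its log2 fold change was 0.37 (SE 0.43, 95% interval -0.55 to 1.29, adjusted p = 0.545) in VSG against Sham-WM, the highest of the 9, 0.18 (SE 0.43, adjusted p = 0.826) in VSG against Sham-Ad lib and -0.19 (SE 0.43, adjusted p = 0.849) in Sham-WM against Sham-Ad lib. The value for VSG against Sham-Ad lib turned to -0.04 without 3F and to -0.125 without 1F, and that between the sham groups to 0.26 without 4F.

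Levels of different genes were compared per kb of exon. In Sham-Ad lib livers Slco1b2 led, at 304 ± 69.0 CPM per kb, followed by Slco1a1 (70.3 ± 35.96), Abcc2 (70.1 ± 10.4), Abcc3 (41.6 ± 15.1), Slco2b1 (38.2 ± 3.90), Slc22a7 (21.3 ± 4.99), Slco1a4 (10.4 ± 3.54), Abcb1a (1.61 ± 0.80) and Abcc4 (0.34 ± 0.19; SD, n = 4 each). Slco1a1 and Abcc2 could not be ordered there, with Slco1a1 higher in 2 of the 4 livers, nor could Abcc3 and Slco2b1, whose ranges overlapped. In Sham-WM livers the order was the same but for Slco2b1 (32.8 ± 3.44), which stood above Abcc3 (30.3 ± 3.89) in 3 of 4 livers with overlapping ranges. There Slco1a1 and Abcc2, Abcc3 and Slc22a7, and Slc22a7 and Slco1a4 overlapped too, each in this order in 3 of 4 livers. In VSG livers Abcc2 (52.1 ± 10.8) followed Slco1b2, ahead of Slco1a1 (36.3 ± 21.7), Slco2b1 (30.3 ± 3.46), Slc22a7 (28.5 ± 10.7) and Abcc3 (25.6 ± 3.74), and these 5 overlapped with their neighbours. Slco1b2 was above each of the other transporters in all 12 livers, and Abcb1a and Abcc4 were the lowest in each group.

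**Figure D4:**
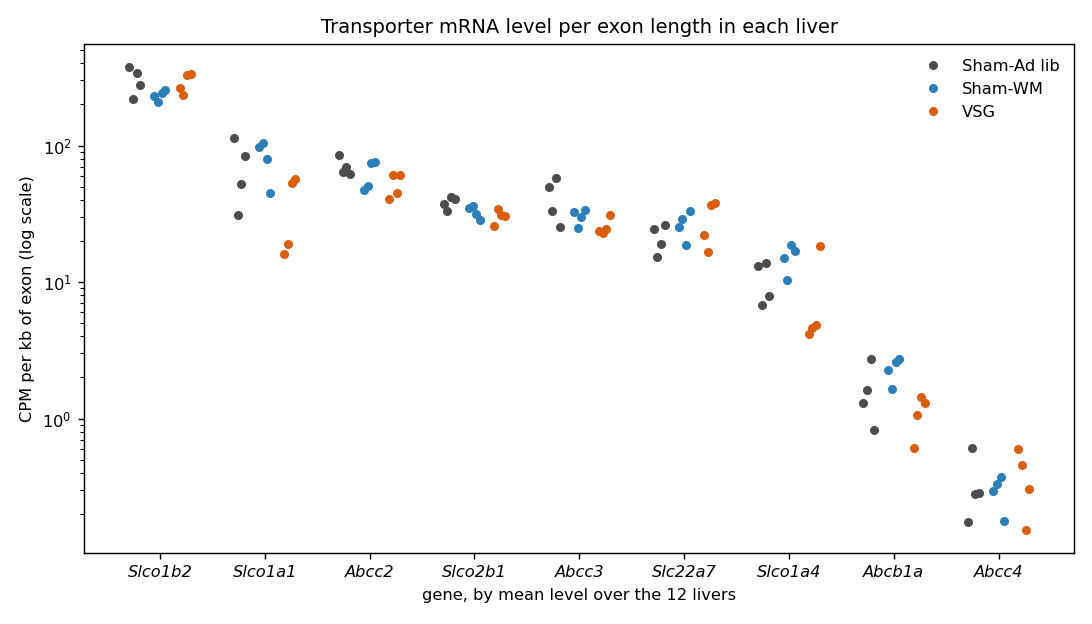
Level of each transporter in CPM per kb of exon (log axis) in the 12 livers, coloured by group, with genes ordered by their mean. Slco1b2 lies above all others and Abcb1a and Abcc4 below them, while Slco1a1 lies below Slco2b1 and Abcc3 in VSG livers 1F and 8F and Sham-Ad lib liver 4F.

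The transporters also differed in how far livers of the same group lay apart. The SD of log2 CPM within groups was 0.79 for Slco1a1, above that of 96.1% of genes tested, 0.69 for Slco1a4 (93.3%), 0.67 for Abcc4 (92.5%) and 0.54 for Abcb1a (86%). It was 0.44 for Slc22a7, 0.36 for Abcc3, 0.29 for Abcc2, 0.25 for Slco1b2 and 0.16 for Slco2b1, the last above that of 18.3% of genes, and the median over all genes was 0.26. Slco1a1 thus combined a high level, above that of 96.6% of genes tested, with a wide spread, whereas Abcc4, above 17.5% of genes in level, and Abcb1a, above 39.6%, were spread widely at few counts.

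**Figure D5:**
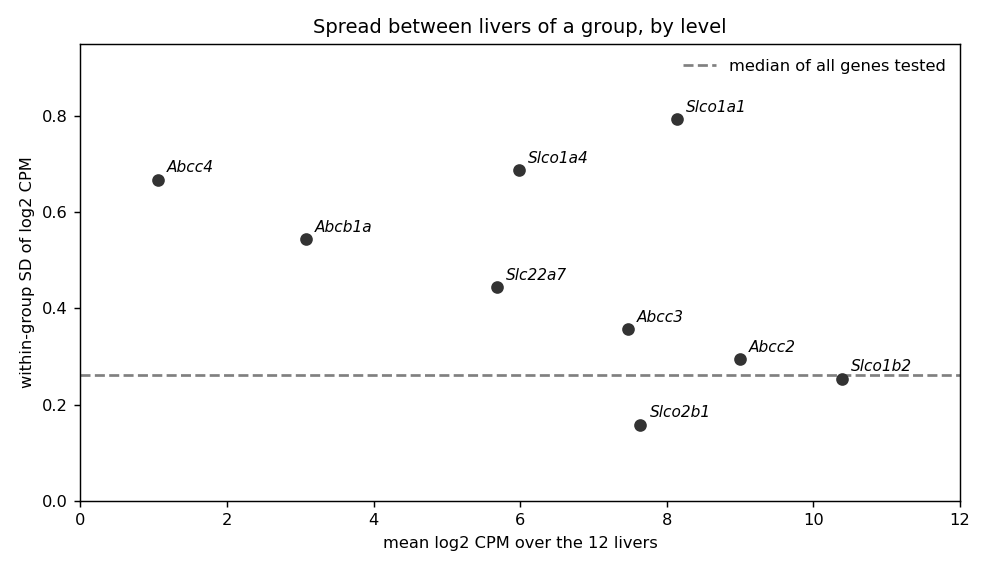
SD of log2 CPM between livers of the same group against the mean log2 CPM over the 12 livers, for each transporter; the dashed line is the median SD of all genes tested, 0.26. Slco1a1 lies at the top with 0.79 and Slco2b1 at the bottom with 0.16.

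The genes whose log2 CPM ran most like that of Slco1a1 over the 12 livers, out of 10823 genes whose log2 CPM averaged 1 or more, were Nfib (Pearson r = 0.92), Pdk1 (0.89), Faah (0.89), Cyb5r3 (0.88) and Sord (0.88). For Abcc4 they were Frmd4a (0.95), Chrm3 (0.91), Gusb (0.90), Btg2 (0.90) and Scamp2 (0.89). These values are the highest of many and describe likeness over the same 12 libraries, groups included.

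Other carriers of the same routes were read beside the 9. Of 8 bile acid and biliary lipid transporters tested, Slc51b was called higher and Abcg8, a sterol exporter, lower in Sham-WM against Sham-Ad lib. The shares of all genes were 3.53% and 3.45%. Abcg8 was called higher in VSG against Sham-WM (log2 fold change 0.955, SE 0.21, adjusted p = 0.00621), beside 15% of all genes. None was called in VSG against Sham-Ad lib (0.751% of all genes). The medians of these 3 comparisons were -0.10, -0.17 and -0.04. Slc51b, a subunit of a bile acid exporter named after its values were seen, had 2, 7, 3 and 3 counts in Sham-Ad lib livers 3F, 4F, 6F and 10F and 18, 14, 38 and 31 in Sham-WM livers 2F, 9F, 15F and 16F (adjusted p = 0.009). VSG livers 1F, 8F, 11F and 18F had 7, 15, 14 and 24 counts of it (adjusted p = 0.0635 against Sham-Ad lib), at or above the highest Sham-Ad lib liver. Its partner Slc51a had 0 counts in all livers. The bile acid carriers Slc10a1 and Abcb11 had log2 fold changes of -0.13 (adjusted p = 0.674) and -0.27 (adjusted p = 0.321) in VSG against Sham-WM, beside 0.53 for Abcg5, -0.36 for Atp8b1 and -0.21 for Abcc6, all with adjusted p above 0.05. Of 20 further Slco, Slc22 and related carriers tested, 1 was called higher and 9 lower in VSG against Sham-WM, beside 15% and 11.9% of all genes, from Slc22a4 at 0.68 (adjusted p = 0.0471) to Slc22a27 at -2.17 (adjusted p = 0.00421), with a median of -0.47. In Sham-WM against Sham-Ad lib 1 of them, Slc16a1, was called higher and 0 lower, beside 3.53% and 3.45% of all genes (median 0.07), and in VSG against Sham-Ad lib 0 were called (median -0.22). Of 7 other ABC proteins from the families of the efflux pumps, 1 was called higher and 2 lower in VSG against Sham-WM, beside 15% and 11.9% of all genes. Abcg3 was the higher (2.07, adjusted p = 0.00962). The lower were Abcg2 and Abcc9, the latter a potassium channel subunit and not a pump, at -0.75 (adjusted p = 0.00871). Abcc9 was also called lower in VSG against Sham-Ad lib (0.283% of all genes). That call, like all others of this comparison, was absent without 6F, 2F, 9F or 1F. None was called between the sham groups. The medians of these 3 comparisons were 0.38, 0.54 and 0.09.

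Regulators known to act on transporter genes were read in the same way. Of 19 tested, Bcl6, a repressor that follows growth hormone, was called higher (2.33, SE 0.58, adjusted p = 0.0119; 72.35 and 88.7 CPM in VSG livers 1F and 8F but 15.2 and 12.7 CPM in 11F and 18F, beside 6.45 to 11.3 CPM in Sham-WM and 11.97 to 44.4 CPM in Sham-Ad lib) and Foxa2 (-0.61, adjusted p = 0.0203) lower in VSG against Sham-WM, beside 15% and 11.9% of all genes. Foxa2 was called higher in Sham-WM against Sham-Ad lib (3.53% of all genes), and 0 were called in VSG against Sham-Ad lib (0.751%). The medians were 0.01, -0.07 and -0.05. The xenobiotic and bile acid receptors had log2 fold changes in VSG against Sham-WM of -0.10 for Nr1i2, 0.13 for Nr1i3 and 0.27 for Nr1h4, with adjusted p = 0.573, 0.808 and 0.326. Those of the remaining regulators whose log2 CPM averaged 4 or more ran from -0.39 for Ppara to 0.79 for Cebpb, with Nr0b2, Nr1h3, Nr3c1, Rxra, Hnf4a, Cebpa, Ahr, Nfe2l2, Keap1, Ncor1 and Stat5b between, and none was called. Of 14 targets of the receptors CAR and PXR, 1 was called higher (Por, 0.59, adjusted p = 0.034) and 2 lower (Cyp2b9 and Cyp2b13, the latter at -5.11, adjusted p = 0.0408) in VSG against Sham-WM, beside the same shares of all genes, 15% and 11.9%. Between the sham groups 1, Por, was called lower (3.45% of all genes), and 0 in VSG against Sham-Ad lib, with medians of -0.58, 0.18 and -0.47. Cyp2b9 and Cyp2b13 also belong to the list of female-biased genes below, so their calls are not separate there. Cyp2b13 averaged 0.294 CPM in VSG livers, close to the 0.153 to 0.226 CPM of 3 counts, and its SE was 1.70.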

How the data were processed

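Livers of 12 mice were measured by RNA-seq of poly(A) RNA in directional libraries. According to the submitters' processing notes, the authors aligned reads to mm10 with TopHat2 2.1.1 and counted them per gene with featureCounts, and the deposited values are whole-number counts that were not normalised. Library totals ran from 15122520 to 19384076 counts. Libraries were put into groups by the animal number that library name and sample title share. The description field pairs all 12 titles with libraries of other numbers, in the text order of the library names. It was used as an alternative, and the labels do not settle which is right. Under the animal numbers, the numbers that end the library names (104 to 115), whose meaning is not given, run in a block of 4 within each group, and an effect of such blocks cannot be separated from that of treatment. No library was a copy of another of its group: the lowest chi-square per degree of freedom over 18 pairs was 15.9, where repeated sequencing of 1 library would give about 1. That says nothing on how far mice differ.

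Counts were fitted in edgeR 4.0.16 (R 4.3.3) over all 12 libraries with group means, TMM normalisation and filterByExpr (minimum count 10, minimum total 15). Quasi-likelihood p-values were adjusted by Benjamini-Hochberg over 13054 genes and called under 0.05. Log2 CPM used a prior count of 2. The p-values rest on a spread between mice of a group that is pooled over all groups, so the group outside a comparison enters it as well. The spreads were unequal, with a chi-square per degree of freedom of 49.0 to 136 for VSG pairs, 25.6 to 89.9 for Sham-Ad lib pairs and 15.9 to 47.9 for Sham-WM pairs. Alternatives were DESeq2 1.42.0, other normalisations and filters, 2-group fits, RUV factors, grouping by description, and leaving out libraries. Leaving out 4F and 18F together was chosen after seeing the data. Each fitting method was tested on simulated data. Exon lengths, symbols and positions came from GENCODE M21, which may not be the authors' annotation, and promoters from RefSeq. The 100-base windows have the length of the paired reads. Whether strand was used in counting, and how reads shared by genes were handled, is not given in the sources used here.

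All 9 transporters are named. Of each other list, the called genes with the highest and lowest log2 fold change in VSG against Sham-WM are named, with transporters of bile acids and lipids and regulators whose log2 CPM averaged 4 or more, and the 5 genes most like the transporters with the highest and lowest log2 fold change. The most abundant marker of a list (Alb, Cd5l, Fcgr2b, S100a9, Igkc) and genes tied to a named one by shared sequence, overlap or pairing (Abcb1b, Gm15635, Slc51a) are named as well. Other names (Slc51b, Slc16a1, Abcg2, Emcn, Clec4f, Vsig4, Cyp2b9, Lrat, Reln, Hgf and Fgb) and the values of Alb as a called gene were chosen after their values were seen. The transporters and lists were chosen with earlier results of these data known.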

Additional observations from a re-analysis of the deposited data

Results flagged for a closer look

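The level of Slco1a4 in VSG liver 18F lay far from the other 3 VSG livers: at 117 CPM beside 26.5, 29.6 and 31.0 CPM in 1F, 8F and 11F, its gap to the nearest liver took up 0.895 of the group's range on the log2 scale, above Dixon's critical value at 95%. Of 27 combinations of transporter and group examined in this way, 1 passed, and chance alone passes about 1 in 20.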

How the results depend on the processing

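Across alternatives, 536 of 594 log2 fold changes of single transporters kept their direction and their side of the threshold, 18 passed it newly, 6 no longer passed it and 34 changed sign. Abcb1a in VSG against Sham-WM was the only result called at first, so all 6 losses are its own. The other results were not called at first, so keeping their side of the threshold says little on robustness. All 27 mean levels per kb moved by less than 1 SD with raw library totals. Abcc4 and Abcb1a are limited by depth, at 13 to 72 and 56 to 277 counts per library.

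The number of genes called in VSG against Sham-Ad lib, 98 in edgeR, was 1202 with DESeq2, 628 with no filter on low counts, 2957 with 2 RUVr factors, 6 with 2 RUVs factors and 1453 without 4F and 18F. It was 0 with at least 10 counts in every library, 0 with only the 8 libraries compared and 0 with the grouping by description, where 2755, 2523 and 465 genes had an unadjusted p under 0.05. In Sham-WM against Sham-Ad lib the 912 genes became 1445 with DESeq2, 1399 with only the 8 libraries compared, 2137 with RUVr, 1723 with RUVs and 0 by description (715 unadjusted). In VSG against Sham-WM the 3509 genes became 5484 with RUVr, 518 with RUVs and 0 by description (158 unadjusted). Leaving out 1 library at a time gave 0 to 1089, 424 to 1311 and 2196 to 3868 genes in the 3 comparisons.

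The number of the 9 transporters called in VSG against Sham-Ad lib, 0 in edgeR, was 2 with DESeq2 (Slco2b1, Abcc3; 9.21% of all genes), 4 with RUVr (Slco1a1, Slco2b1, Abcc2, Abcc3; 22.7%), 2 without 4F and 18F (Slco1a4, Abcc3; 11%), and 0 to 1 when 1 library was left out. In Sham-WM against Sham-Ad lib, 0 in edgeR, it was 1 with RUVs (Slco1b2; 13.2% of all genes). In VSG against Sham-WM, 1 in edgeR (Abcb1a), it was 2 with no filter (Slco1a1, Abcb1a; 14.3% of all genes, 3294), 3 with RUVr (42%) and 3 without 4F and 18F (28.8%, 3786 genes; both times Slco1a1, Slco1a4, Abcb1a), 0 by description, and 0 to 3 when 1 library was left out. With RUVs 1 was called there, Slco1b2 in place of Abcb1a (3.97% of all genes).

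Signs changed with RUVs in VSG against Sham-Ad lib for Slco1a4 (0.62), Slco1b2 (0.33) and Abcc4 (-0.55), in Sham-WM against Sham-Ad lib for Abcc4 (0.00778), and in VSG against Sham-WM for Slco1a4 (0.37), Abcc2 (0.29), Abcc3 (0.38) and Abcc4 (-0.56). With the grouping by description they changed in VSG against Sham-Ad lib for Slco1a1 (0.12), Slco1a4 (0.0567), Slco1b2 (0.13), Slc22a7 (-0.062) and Abcc3 (0.28). In Sham-WM against Sham-Ad lib they did so for Slco1a1 (-0.33), Slco1a4 (-0.45), Slco2b1 (0.145), Slc22a7 (-0.52), Abcc3 (0.30), Abcc4 (0.74) and Abcb1a (-0.12), and in VSG against Sham-WM for Slco1a1 (0.45), Slco1a4 (0.51) and Abcc4 (-0.285). Without 4F and 18F they changed between the sham groups for Slco1a1 (-0.0227) and Abcc4 (0.26) and in VSG against Sham-WM for Slc22a7 (-0.0796). With 1 library left out, log2 fold changes that crossed 0 ran from -0.19 to 0.052 for Slco1b2 and -0.125 to 0.63 for Abcc4 in VSG against Sham-Ad lib, from -0.0224 to 0.555 for Slco1a1 and -0.405 to 0.26 for Abcc4 between the sham groups, and from -0.081 to 0.26 for Slc22a7 in VSG against Sham-WM. The cause of these changes was not tested. No paired analysis was possible because the groups share no replicate numbers.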

Other observations

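Markers of other cells were counted in the same livers. The 12 neutrophil markers summed to 2.57, 23.2, 1.68 and 3.51 CPM in Sham-Ad lib livers 3F, 4F, 6F and 10F, to between 3.23 and 4.38 CPM in Sham-WM livers, and to 1047, 454.5, 143 and 37.3 CPM in VSG livers 1F, 8F, 11F and 18F, with S100a9 the most abundant. Of the 10 tested, 10 were called higher in VSG against Sham-WM (15% of all genes) and 8 in VSG against Sham-Ad lib (0.467%), where no gene at all was called without 6F, 2F, 9F or 1F. The summed lymphocyte markers, led by Igkc, were 213, 106.1, 88.9 and 62.9 CPM in the same VSG livers and between 16.5 and 40.6 CPM in the sham livers. VSG liver 18F had the lowest level of both lists in its group, and Sham-Ad lib liver 4F the highest in its own. Of 12 markers of stellate cells and fibroblasts, 0 were called higher and 5 lower in VSG against Sham-WM (Acta2, Hgf, Lrat, Reln and Ecm1, from -1.39 to -0.73), beside 15% and 11.9% of all genes, with a median of -0.36. Between the sham groups Lrat was called higher (3.53% of all genes) and 0 lower, with a median of -0.004. In VSG against Sham-Ad lib 0 were called, with a median of -0.38.

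Of 14 targets of NRF2, an oxidative stress factor that also acts on Abcc3 and Abcc4, 1 was called higher (Hmox1, 1.78, adjusted p = 0.00579) and 5 lower (Me1 at -2.30, adjusted p = 0.000678) in VSG against Sham-WM, beside 15% and 11.9% of all genes, with a median log2 fold change of -0.27. Between the sham groups 1 was called higher (3.53% of all genes) and 0 lower, with a median of 0.26. In VSG against Sham-Ad lib 0 were called, with a median of 0.02. Of 9 female-biased liver genes tested, 1 was called higher and 5 lower in VSG against Sham-WM (median -1.63), with Cyp2b9 and Cyp2b13 of the CAR and PXR list among the lower. Of 17 male-biased genes 2 were called higher and 1 lower there (median 0.51), beside the same 15% and 11.9% of all genes. In VSG against Sham-Ad lib 0 of either list were called (medians -1.84 and 0.06), beside 0.467% of all genes higher and 0.283% lower. In Sham-WM against Sham-Ad lib 1 female-biased gene was lower (3.45% of all genes) and 1 male-biased gene higher (3.53%). The medians there were 0.10 and -0.57.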
